A study of Mus musculus with 15 samples.

Results

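The chromatin around 4 genes that mark intestinal stem cells, Lgr5, Ascl2, Olfm4 and Smoc2, was followed through serial transplantation of mouse colon cancer organoids. The members are all accessible regions of the deposited table that overlap 1 of 4 mm9 windows, chromosome 10 from 114.84 to 115.08 Mb around Lgr5, chromosome 7 from 150.1 to 150.2 Mb around Ascl2, chromosome 14 from 80.34 to 80.48 Mb around Olfm4 and chromosome 17 from 14.36 to 14.6 Mb around Smoc2. The windows held 28 of the table's 43020 regions, with 5 at Lgr5, 13 at Ascl2, 10 at Smoc2 and 0 at Olfm4. Of these 28 regions, 26 had enough counts to be tested, and the 2 left out both lie at Smoc2.

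The assay was ATAC-seq: a transposase cuts and tags DNA that is not packed away, and counts are higher where chromatin is open. The 15 libraries each came from 50000 cells of an organoid line, a culture of tumour cells in which no other tissue is named. All 15 lines are labelled with the genotype AKP, which the labels do not spell out, and all were carried in C57Bl6 recipient mice. Liver metastases of rounds 1, 2 and 3 gave the groups Met1, Met2 and Met3, primary tumours of rounds 2 and 3 gave Primary2 and Primary3, and each group has 3 lines. Cells were transplanted into the colon in each round, and the primary tumour lines serve as the controls. Round 1 primary lines are not analysed here. The descent of single lines is not given in the sources used, so a p-value covers the spread between these lines alone, which may be partly technical.

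Library totals ran from 285633 counts (Primary3 replicate 2) to 5916109 (Primary3 replicate 3). The other shallow library was Met1 replicate 1, with 790233 counts. The lines of a group correlated least in Met2 (r = 0.692 to 0.844 across tested regions) and most evenly in Met3 (0.862 to 0.885). No mm9 annotation was used here, so the regions carry no exon, intron or promoter label, other stem cell and Wnt pathway genes were not placed on regions, and the labelled cell type was not checked against marker genes. ATAC-seq gives openness of DNA and no RNA level.

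Crypt base stem cells renew the intestinal epithelium and depend on Wnt signals. Lgr5 encodes a receptor for R-spondins, secreted proteins that strengthen Wnt signalling, and is itself a Wnt target. Ascl2 encodes a basic helix-loop-helix transcription factor that maintains the stem cell state. Olfm4 encodes a secreted glycoprotein of crypt base cells, and Smoc2 a secreted calcium-binding matrix protein that belongs to the stem cell signature. In colon cancers these genes are used to name stem-like tumour cells.

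Promoter sequences from RefSeq (build GRCm38.p6) were found for 2 of the 4 genes, Ascl2 and Olfm4, and both are shown. They are also the loci with the most and the fewest accessible regions. Each line gives the 250 bases before the annotated start, 5′ to 3′ on the gene's own strand (minus for Ascl2, plus for Olfm4), with capitals on the motifs that were searched.
Ascl2: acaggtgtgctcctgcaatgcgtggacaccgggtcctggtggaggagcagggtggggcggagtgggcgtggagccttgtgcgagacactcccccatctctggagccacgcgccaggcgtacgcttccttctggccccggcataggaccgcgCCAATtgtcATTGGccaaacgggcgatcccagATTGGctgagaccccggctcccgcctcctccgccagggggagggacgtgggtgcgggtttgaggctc
Olfm4: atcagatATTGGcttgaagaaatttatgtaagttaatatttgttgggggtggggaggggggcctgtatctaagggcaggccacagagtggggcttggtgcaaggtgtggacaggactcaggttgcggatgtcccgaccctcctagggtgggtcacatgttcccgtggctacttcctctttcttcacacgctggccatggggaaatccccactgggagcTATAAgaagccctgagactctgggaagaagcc
The motifs were CTTTGA (the core letters of the TCF/LEF element), GATAA (GATA factors), CCAAT and TATAA, each read on both strands. The Ascl2 promoter held 3 CCAAT matches, 2 of them on the reverse strand, beginning 99, 90 and 67 bases before the start. The Olfm4 promoter held 1 CCAAT match and a TATAA match that began 32 bases before the start. CCAAT is found in 33.9% of 32851 promoters of the same length, TATAA in 22.8%, GATAA in 22.6% and CTTTGA in 13.8%, and the last of these and GATAA had 0 matches in both sequences. The Ascl2 promoter is rich in G and C (67.6%, with 19 CG pairs), against 54.0% and 4 CG pairs for Olfm4 and a median of 52.4% and 6 over all promoters. A match of letters is a description and not a site of binding.

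Around Ascl2, accessibility was lower in the metastasis lines of rounds 2 and 3 than in the primary lines. Summed over the 13 regions of the window, the signal was 342.1, 340.5 and 375.7 CPM (region counts relative to the TMM-scaled library total) in the Primary2 lines and 233.1, 224.2 and 231.6 in the Primary3 lines. It was 124.4, 171.8 and 115.0 CPM in Met2 and 123.4, 144.0 and 163.7 in Met3. No later metastasis line reached any primary line, and the primary mean was 2.07-fold the mean of the later metastasis lines. The Met1 lines, at 307.4, 275.7 and 232.7 CPM, lay above every later metastasis line. How often windows elsewhere in the genome show either order was not counted, and the sum includes the regions called lower below.

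By group, the order of the summed Ascl2 signal was Primary2 (352.7 ± 19.9 CPM), Met1 (271.9 ± 37.5), Primary3 (229.6 ± 4.77), Met3 (143.7 ± 20.1) and Met2 (137.1 ± 30.5; SD, n = 3 each). Met1 and Primary3 overlapped, as did Met3 and Met2. The Lgr5 window gave a flat picture, from 102.9 ± 13.3 CPM in Met2 through 110.7 ± 10.8 in Primary3, 112.1 ± 14.3 in Primary2 and 117.3 ± 11.1 in Met3 to 121.4 ± 11.7 in Met1. Each of these groups overlapped its neighbours. At Smoc2 the highest group was Met2 (190.9 ± 189.6 CPM), a mean set by 1 line, and Met1 (99.8 ± 39.0), Primary2 (78.8 ± 5.79), Primary3 (73.5 ± 7.74) and Met3 (63.1 ± 16.3) followed. These sums were not tested, because the members were chosen with results of the data known.

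**Figure D1:**
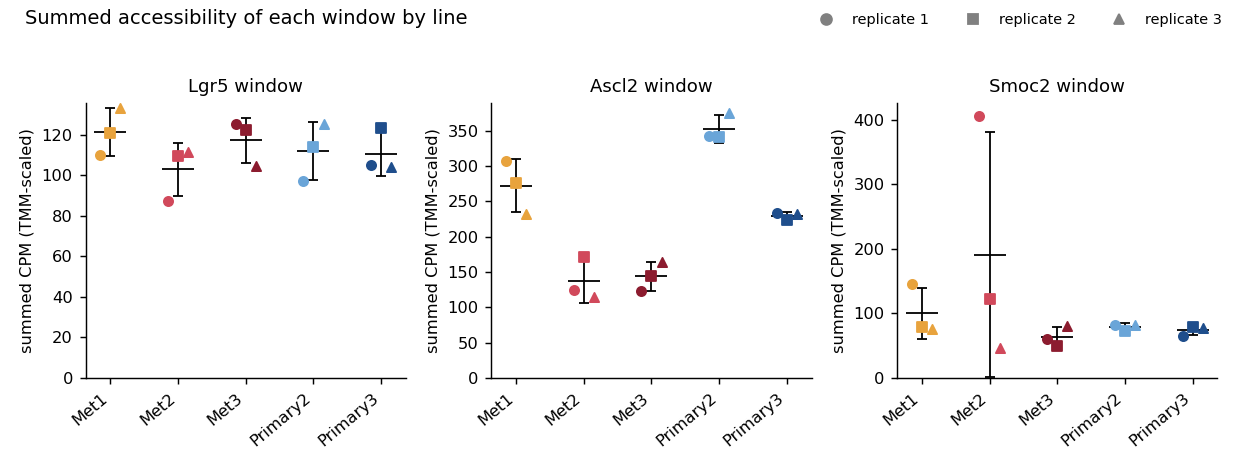
Summed CPM of the Lgr5, Ascl2 and Smoc2 windows (vertical axes, from 0) in the 15 lines by group, with the mean and SD (n = 3). In the Ascl2 panel the 6 later metastasis lines lie between 115.0 and 171.8 CPM and the 6 primary lines between 224.2 and 375.7, and in the Smoc2 panel Met2 replicate 1 stands at 405.4.

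Each region was tested in a fit of all 39952 tested regions of the table, with edgeR's quasi-likelihood test and Benjamini-Hochberg adjustment, and called at an adjusted p under 0.05. For metastasis against primary lines in rounds 2 and 3 together, 6 of the 26 tested members were called, 5 lower and 1 higher, where 20.2% of all tested regions were called, 8.99% lower and 11.2% higher. All 5 lower members lie at Ascl2. The higher one, at Lgr5, passed the filter on low counts only through its metastasis lines. Smoc2 had 0 of 8 called by edgeR and by DESeq2, with 1 at an unadjusted p under 0.05. The median log2 fold change was -0.62 over the 13 Ascl2 regions, 0.03 over the 5 Lgr5 regions and 0.51 over the 8 Smoc2 regions, against 0.04 over all tested regions. Smoc2 peak_39580, peak_39582, peak_39588 and peak_39592 passed the filter only with their metastasis lines, and Ascl2 peak_93863 and peak_93866 only with their primary lines. The filter can thus shift these medians, which with no filter were 0.5 at Smoc2 and -0.62 at Ascl2. At Ascl2, 12 of 13 fitted values were negative, and their range was -2.03 to 0.42.

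**Figure D2:**
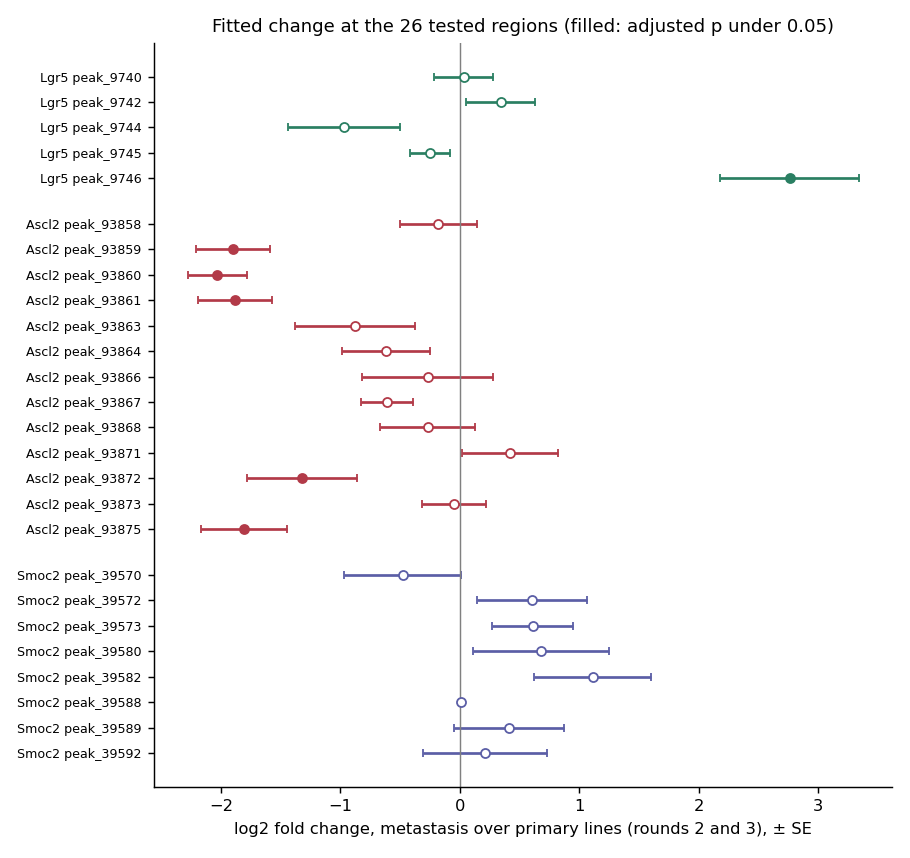
Fitted log2 fold change (horizontal axis, with SE) of metastasis over primary lines in rounds 2 and 3 at the 26 tested regions, ordered by position within each window, with filled points for regions called. The filled Ascl2 points lie between -2.03 and -1.32, the filled Lgr5 point is at 2.76, and no Smoc2 point is filled. peak_39588 has no error bar because its fitted value is too close to 0 for the SE to be taken from the F statistic.

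Of the 5 lower regions at Ascl2, 3 are neighbours that span 9.6 kb, peak_93859 (mm9 chromosome 7, 150112502 to 150113683), peak_93860 (150117825 to 150119751) and peak_93861 (150121552 to 150122130). Their centres lie 41.2, 35.5 and 32.5 kb below that of peak_93867, the region with the most signal in the window, on the scale of the table's coordinates.

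At peak_93860 the Primary2 lines held 98.1, 92.7 and 83.1 CPM and the Primary3 lines 55.9, 12.6 and 42.1. The later metastasis lines held 9.87, 16.9 and 15.2 CPM in Met2 and 10.8, 17.4 and 19.9 in Met3. Met2 was below Primary2 throughout, while Met3 overlapped Primary3 through Primary3 replicate 2, the shallowest library, whose value rests on 4 counts (exact 95% Poisson interval 3.44 to 32.3 CPM, counting error only). The log2 fold change was -2.03 ± 0.25 (± SE; adjusted p from edgeR of 5.89e-06) over both rounds, -2.69 ± 0.35 in round 2 and -1.36 ± 0.35 in round 3. The Primary2 mean was 6.52-fold that of Met2, and the Primary3 mean 2.30-fold that of Met3.

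At peak_93859 the primary lines held 47.1, 34.7 and 25.6 CPM in round 2 and 25.01, 34.7 and 24.2 in round 3. Met2 held 7.24, 12.5 and 3.46 CPM, and Met3 4.21, 11.7 and 8.99. Every metastasis line was below every primary line of its round, as at 4.96% of all tested regions. That share is for both rounds together. For groups that did not overlap in a single round, at any region of this report, no such share was counted. On the log2 scale the signal fell, by a fitted value of -1.90 ± 0.31 (± SE; adjusted p from edgeR of 0.000131).

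At peak_93861 the primary lines held 37.9, 43.4 and 44.8 CPM in round 2 and 23.3, 31.6 and 21.8 in round 3. Met2 held 3.95, 15.6 and 5.54 CPM, and Met3 7.82, 8.32 and 9.63. Here, too, no metastasis line reached a primary line of its round, and the log2 fold change was -1.88 ± 0.31 (± SE; adjusted p from edgeR of 0.000164).

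A separate decrease lay at the far end of the window. At peak_93875 (chromosome 7, 150199385 to 150199984), 45.4 kb above peak_93867, the Primary2 lines held 19.5, 20.6 and 23.2 CPM and the Primary3 lines 14.6, 6.31 and 11.8, against 5.92, 4.90 and 3.46 in Met2 and 3.61, 6.43 and 1.93 in Met3. Round 2 did not overlap, and in round 3 Met3 replicate 2 lay above Primary3 replicate 2 (2 counts). The fitted change was -1.81 ± 0.36 (± SE; adjusted p from edgeR of 0.000989). The 4 regions peak_93859, peak_93860, peak_93861 and peak_93875 were called in rounds 2 and 3 together under each of 23 alternatives that gave a test, with the highest adjusted p at 0.00556.

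The fifth region, peak_93872 (150190667 to 150191399), was near the threshold at -1.32 ± 0.46 on the log2 scale (SE, edgeR, adjusted p = 0.0462). The Primary2 lines held 8.04, 23.9 and 34.4 CPM and overlapped Met2 at 9.21, 5.34 and 3.46. The Primary3 lines held 15.6, 0 and 14.3 CPM (0 counts in replicate 2, where 3 counts would be 9.47 CPM) and overlapped Met3 at 1.81, 6.43 and 13.5. It was not called under 13 of 23 alternatives, among them the fit with the replicate number as a block (-1.27, adjusted p = 0.074), removal of chromosome medians (-1.24, 0.0632) and the loss of Primary2 replicate 3 (-1.09, 0.142). The other single libraries without which it was not called were replicates 2 and 3 of Met1, 2 and 3 of Met2, 1 and 2 of Met3, 2 of Primary2 and 1 and 3 of Primary3, with values from -1.32 to -1.10. With the medians of the surrounding regions removed, the difference of group means of log2 CPM was -0.52. This is another estimate than the fit, since each line weighs alike in it, also Primary3 replicate 2 with 0 counts. How much of the change comes from the local medians was not tested.

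**Figure D3:**
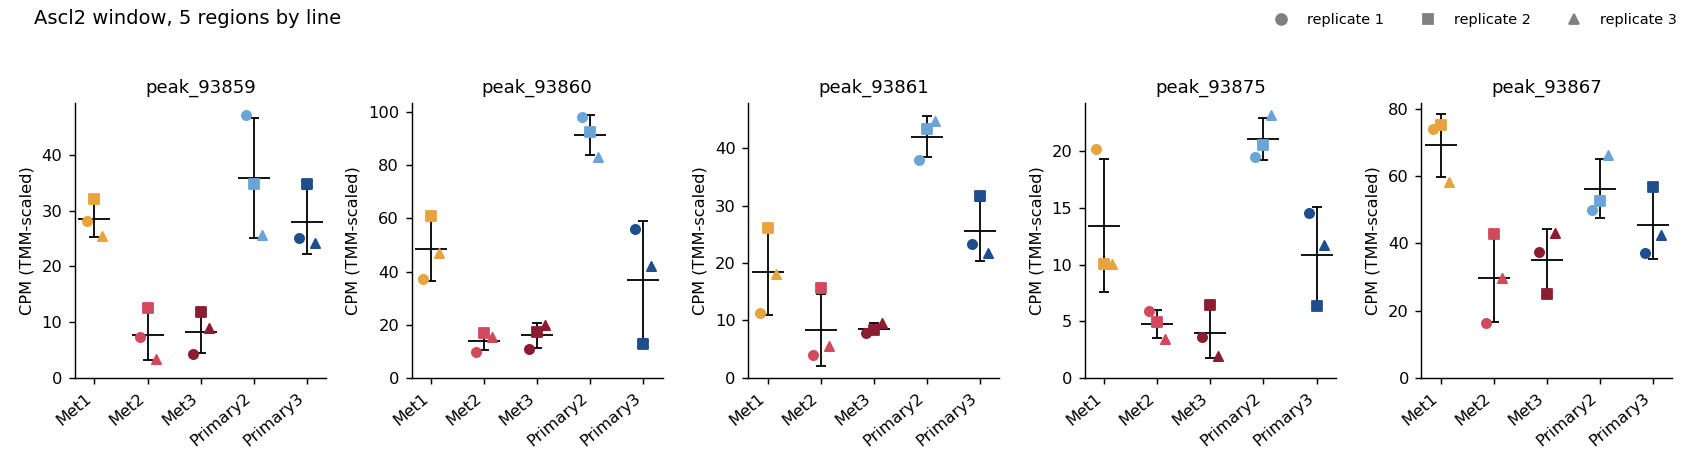
CPM by line (vertical axes, from 0) at 4 Ascl2 regions called lower in later metastasis lines and at peak_93867, with the mean and SD of each group (n = 3). At peak_93859 and peak_93861 every Met2 and Met3 line lies below the primary lines of its round, and at peak_93867 the Met1 lines (58.2 to 75.1 CPM) lie above the Met2 and Met3 lines (16.5 to 43.0).

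The strongest Ascl2 region, peak_93867 (150153171 to 150155460), had values of 49.9, 52.6 and 66.4 CPM in Primary2 and 37.2, 56.8 and 42.4 in Primary3. Met2 held 16.5, 42.7 and 29.8 CPM, and Met3 37.3, 24.9 and 43.0, so that round 2 did not overlap and round 3 did. The log2 fold change of -0.61 ± 0.22 (SE) just missed the threshold (edgeR adjusted p = 0.0508, 95% interval -1.06 to -0.16), and 5 of 23 alternatives called it. These are scaling by total counts (-0.66, adjusted p = 0.0376), the stricter filter (-0.62, 0.0463) and the fits without Met2 replicate 2 (-0.80, 0.0144), Met3 replicate 3 (-0.70, 0.0434) or Met1 replicate 1 (-0.61, 0.0493).

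The other 7 Ascl2 regions had log2 fold changes from -0.88 ± 0.50 at peak_93863 to 0.42 ± 0.40 at peak_93871 (SE), with adjusted p of 0.237 or more. At peak_93873, for example, the value was -0.05 ± 0.27 with a 95% interval of -0.61 to 0.50, a region with 641 counts over the 15 libraries. The window thus held called regions next to regions whose interval spans 0. Per length, peak_93861 was the densest of the window, at 35.6 CPM per kb over all libraries (above 80.5% of all regions), and the least dense was peak_93864 at 11.04.

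Regions around the window were measured in the same way. Among 75 tested regions within 1 Mb on either side, the median log2 fold change was -0.19, with 10 called lower and 3 higher, and the median over chromosome 7 was -0.06. With the medians of these surrounding regions removed from each line, differences of group means of log2 CPM were -1.72 at peak_93859, -1.58 at peak_93860 and -1.71 at peak_93861. At peak_93860 in round 3 alone the difference was -0.77. These means weigh each line alike, also Primary3 replicate 2 with 4 counts there, so they are not the fitted values less a local shift. The surrounding medians in round 3 were -0.01, 0.06 and 0.01 in Met3 and 0.24, 0.29 and 0.12 in Primary3. In RefSeq's gene order for GRCm38.p6, the protein-coding neighbours of Ascl2 are Th and Ins2 on one side and Tspan32 and Cd81 on the other, so a region of the window may lie closer to another gene than to Ascl2.

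Taken alone, round 2 called 4 of the 26 members, all lower and all at Ascl2 (6.22% of all tested regions were called, 2.77% lower and 3.46% higher). They were peak_93859 (-2.16 ± 0.43), peak_93860, peak_93861 (-2.26 ± 0.43) and peak_93875 (-2.13 ± 0.51; SE). Without Met2 replicate 2 the value at peak_93861 was -3.12, and peak_93875 was not called without Met2 replicate 3 or Primary2 replicate 3. Round 3 called 4 as well, with 10.2% of all regions called (4.56% lower and 5.63% higher), namely peak_93859 (-1.64 ± 0.44), peak_93860 and peak_93861 (-1.50 ± 0.44) as lower and peak_9746 at Lgr5 as higher. The calls of round 3 rest on few lines: 0 of 26 were called without Primary3 replicate 1, 0 without Primary3 replicate 3 and 1 without Met3 replicate 1. In these fits, in that order, the values at peak_93860 were -1.04, -1.34 and -1.16. At peak_93859 they were -1.71 (edgeR adjusted p = 0.0583), -1.73 (0.0503) and -1.35 (0.0997), so the call could be lost without a smaller fitted change. The share of all regions called in these fits was not recorded. peak_93861 was also lost without Met3 replicate 2, Met3 replicate 3 or Primary3 replicate 2. Between the rounds, edgeR called the difference at 0 of 26 members (3 had an unadjusted p below 0.05). It was called at 0 of all 39952 tested regions, so this count is not particular to the members. DESeq2 called 0 too and gave no adjusted p at 14.

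Comparisons with Met1 followed the loci through the serial rounds. Met1 held 28.0, 32.1 and 25.4 CPM at peak_93859 and 37.0, 61.0 and 47.0 at peak_93860. All 3 lines were above all 6 later metastasis lines at both regions. At peak_93867, too, the Met1 lines (74.0, 75.1 and 58.2 CPM) exceeded the later ones. The share of all regions with this order was not counted. Met2 was lower than Met1 at 3 of the 26 members (3.54% of all regions were called, 0.901% lower and 2.64% higher), namely peak_93859 (-1.83 ± 0.43), peak_93860 (-1.79 ± 0.35) and peak_93867 (-1.19 ± 0.30; SE, edgeR adjusted p = 0.0281). A fit of only Met1 and Met2 called 0 of 26, with values of -1.86, -1.80 and -1.22 and adjusted p of 0.149, 0.0707 and 0.178. Only peak_93860 was called without Met1 replicate 2 or without Met1 replicate 3, and 5 members were called without Met2 replicate 2. peak_93867 was lost without Met1 replicate 1 or Met2 replicate 1, and both it and peak_93859 without Met2 replicate 3.

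Met3 was compared with the same Met1 lines, so its values stand beside those of Met2 and are not a second observation. Of the 26 members 5 were called (9.54% of all regions, 3.56% lower and 5.98% higher), of which peak_93859 (-1.74 ± 0.43), peak_93860 (-1.61 ± 0.35), peak_93867 (-0.99 ± 0.30, edgeR adjusted p = 0.0383) and peak_93875 (-1.60 ± 0.51, 0.0497; SE) were lower. The fifth, peak_9746 at Lgr5, was higher. The count was 2 with the replicate number as a block and 2 when Met1 replicate 1 and Primary3 replicate 2 were both left out, and in both fits peak_93867 (-0.97, adjusted p = 0.0557 with the block), peak_93875 (-1.61, 0.0662) and peak_9746 (2.46, 0.0523) were lost. The count was also 2 without any one of Met1 replicates 1, 2 and 3, Met3 replicate 1, Met3 replicate 3 or Primary3 replicate 3, and 3 without Met2 replicate 2, Met3 replicate 2, Primary2 replicate 1, Primary2 replicate 2 or Primary3 replicate 1. These fits lost peak_93867, peak_93875 or peak_9746, and the fit without Met3 replicate 1 lost peak_93859 too. peak_93860 was called in all of these fits.

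Against the mean of the primary groups, Met1 differed at 0 of the 26 members by edgeR and by DESeq2, with 1 at an unadjusted p under 0.05 and 9.47% of all regions called (4.52% higher, 4.95% lower). The log2 fold change was -0.12 ± 0.34 at peak_93859 (95% interval -0.83 to 0.60) and -0.33 ± 0.28 at peak_93860 (-0.91 to 0.25), so a 2-fold decrease lies outside both intervals. At peak_93861 it was -0.74 ± 0.36 (-1.48 to 0.01), with Met1 lines at 11.2, 26.1 and 18.03 CPM. Round and tissue of origin cannot be told apart in this comparison.

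Rounds 2 and 3 were also compared within each origin. In both comparisons edgeR called 0 of all 39952 tested regions, so a count of 0 is not particular to these loci. Met3 against Met2 had 0 of 26 members called by edgeR and by DESeq2, with 4 at an unadjusted p under 0.05, all at Smoc2. Primary3 against Primary2 had 0 called by both, with 1 at an unadjusted p under 0.05. That was peak_93860, with a mean of 91.3 ± 7.60 CPM in Primary2 and 36.9 ± 22.1 in Primary3 (SD, n = 3; log2 fold change -1.14 ± 0.33 SE, edgeR adjusted p = 0.394). Over the 13 Ascl2 regions the median of this contrast was -0.67, with 10 negative values, against -0.05 over all tested regions. DESeq2 gave no adjusted p at 9 and 15 members in these 2 comparisons.

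At Lgr5, the receptor gene, the 2 regions with the most signal were not called in any comparison. The strongest region was peak_9745 (chromosome 10, 115023080 to 115024988), with 41.5, 50.3 and 56.8 CPM in Met2 and 51.2, 56.7 and 45.6 in Met3. The primary lines held 56.8, 62.3 and 77.5 CPM in round 2 and 60.1, 60.0 and 48.1 in round 3, and the Met1 lines 42.6, 52.5 and 68.9. The Met2 lines reached just short of the lowest Primary2 line, without overlap, and the round 3 groups overlapped. The fitted log2 change came to -0.25 ± 0.17 (± SE; adjusted p from edgeR of 0.342), and its 95% interval of -0.61 to 0.11 leaves a decrease of up to 0.61 on the log2 scale possible. With chromosome medians removed the value was -0.45 (adjusted p = 0.0624), since the median over chromosome 10 was 0.20.

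The next Lgr5 region, peak_9742 (114942146 to 114943571), held 9.87, 27.2 and 30.5 CPM in Met2, 44.5, 26.8 and 32.1 in Met3, 15.5, 22.8 and 19.2 in Primary2 and 14.9, 44.2 and 26.2 in Primary3. The groups overlapped in both rounds (log2 fold change 0.34 ± 0.29 SE, edgeR adjusted p = 0.45, 95% interval -0.25 to 0.93). At peak_9740 (114921451 to 114922133), with 29.2 CPM per kb beside 29.0 at peak_9745, the log2 fold change was 0.03 ± 0.25 (95% interval -0.48 to 0.54). They stood above 73.6% and 73.4% of all regions by signal per length. peak_9744 (114998243 to 114999034) was faint, at 7.66 CPM per kb, and its fitted value was -0.97 ± 0.47 (SE, edgeR, adjusted p = 0.161).

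The region called higher at Lgr5 was small and faint. At peak_9746 (115060551 to 115060789), 238 bp wide and 36.6 kb above peak_9745, the Met2 lines held 5.92, 12.5 and 4.16 CPM and the Met3 lines 3.61, 13.6 and 7.06. The Primary2 lines held 1.15, 1.08 and 1.60 CPM, the Primary3 lines 0.695, 0 and 1.36, and the Met1 lines 0, 1.89 and 1.77. Every later metastasis line was above every primary line of its round, as at 5.76% of all tested regions. The counts behind these values were few, with 43 in Met2, 53 in Met3, 12 in Met1, 6 in Primary2 and 10 in Primary3 over 3 lines each, and the 0 in Primary3 replicate 2 has an exact 95% Poisson interval up to 11.7 CPM.

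At peak_9746 the fitted log2 fold change was 2.76 ± 0.58 (± SE; adjusted p from edgeR of 0.00143) in rounds 2 and 3 together and 2.96 ± 0.81 in round 3 (adjusted p = 0.021), whereas round 2 alone did not pass (2.56 ± 0.82, 0.0628). In round 3 the value was 3.63 without Primary3 replicate 3 (adjusted p = 0.0678), 2.71 without Primary3 replicate 1 (0.127) and 2.32 without Met3 replicate 2 (0.141). The region passed the filter on low counts only through its metastasis lines, where it is high, so its call does not stand apart from that choice. The stricter filter left it out, and with no filter the value was 2.76 (adjusted p = 0.0013). Met3 was also higher than Met1 (2.43 ± 0.75, adjusted p = 0.0418), a call kept in 8 of 21 alternatives. Among 35 tested regions within 1 Mb of the Lgr5 window, the median log2 fold change was -0.01, with 4 called lower and 3 higher.

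**Figure D4:**
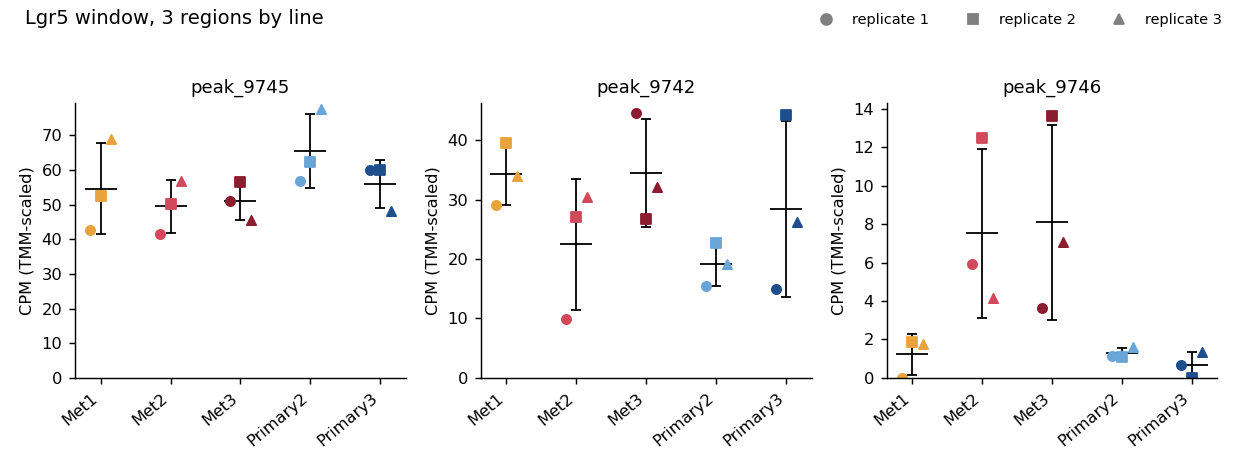
CPM by line (vertical axes, from 0) at 3 Lgr5 regions, with the mean and SD of each group (n = 3). At peak_9745 all groups lie between 41.5 and 77.5 CPM, and at peak_9746 the Met2 and Met3 lines (3.61 to 13.6 CPM) lie above the other 9 lines (0 to 1.89).

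At Smoc2, which encodes the secreted matrix protein, a single line stood apart. Met2 replicate 1 had the highest value of all 15 libraries at 6 of the 10 Smoc2 regions, compared with 1 of 13 at Ascl2 and 1 of 5 at Lgr5. How often this line was the highest over all regions of the table was not counted. At peak_39572 (chromosome 17, 14370876 to 14372453) it held 143.5 CPM (218 counts), where the other 14 libraries ran from 8.31 to 41.5 CPM with a median of 20.8. At peak_39584 (14438638 to 14439000) it held 56.6 CPM (86 counts), and the others 0 to 6.31. At peak_39573 (14376163 to 14377302) it held 76.3 CPM against at most 37.8, and at peak_39589 (14476847 to 14477455) 61.2 against at most 18.3.

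The other Met2 lines did not follow it. At peak_39572 they held 30.3 and 8.31 CPM, beside 10.8, 9.83 and 20.5 in Met3, 22.96, 21.1 and 33.6 in Primary2, 12.2, 25.3 and 11.8 in Primary3 and 41.5, 15.1 and 21.6 in Met1. Over the 8 tested Smoc2 regions the median deviation of Met2 replicate 1 from the mean of all libraries was 1.65 on the log2 scale, against 0.58 and -0.54 in Met2 replicates 2 and 3. In the same line the 65 tested regions within 1 Mb had a median deviation of 0.08, and chromosome 17 as a whole -0.08. Over the Ascl2 regions its median deviation was -0.79, close to the -0.72 of Met2 replicate 3, although it was the highest library at peak_93868 (23.7 CPM). At Lgr5 peak_9742 it was the lowest.

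Because of this line, the Smoc2 comparisons were read with and without it. At peak_39572 the fitted log2 fold change was 0.60 ± 0.46 (± SE; adjusted p from edgeR of 0.408) in rounds 2 and 3 together and -0.21 (adjusted p = 0.74) without Met2 replicate 1. The median over the tested Smoc2 regions went from 0.51 to -0.07, and the mean of the summed signal in Met2 from 190.9 to 83.6 CPM. At peak_39573 the log2 fold change was 0.61 ± 0.34 (adjusted p = 0.227), and it passed only in the fit without Met2 replicate 3 (0.84, 0.0297). Without Met2 replicate 3, Met3 against Met2 called 2 members, peak_39572 and peak_39573, and round 2 called 7, of which 4 lie at Smoc2.

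The remaining Smoc2 regions were faint. The largest fitted value was 1.11 ± 0.49 at peak_39582 (14424995 to 14426029; SE, edgeR adjusted p = 0.116, 95% interval 0.10 to 2.13). This region passed the filter on low counts only with its metastasis lines, where it is high, so its value does not stand apart from that choice. There the groups of round 2 overlapped and every Met3 line was above every Primary3 line, an order whose share over all regions was not counted. peak_39577 and peak_39584 fell under the filter on low counts, with 67 and 141 counts over all libraries. The others, peak_39570, peak_39580, peak_39588 and peak_39592, had values between -0.48 and 0.68 with adjusted p of 0.453 or more. Of these, peak_39580, peak_39588 and peak_39592 also passed the filter only with their metastasis lines. In Met3 against Met1, peak_39570 was called by DESeq2 and by edgeR in a fit of only these 2 groups, whereas the edgeR fit of all libraries gave -1.86 ± 0.67 (adjusted p = 0.082).

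**Figure D5:**
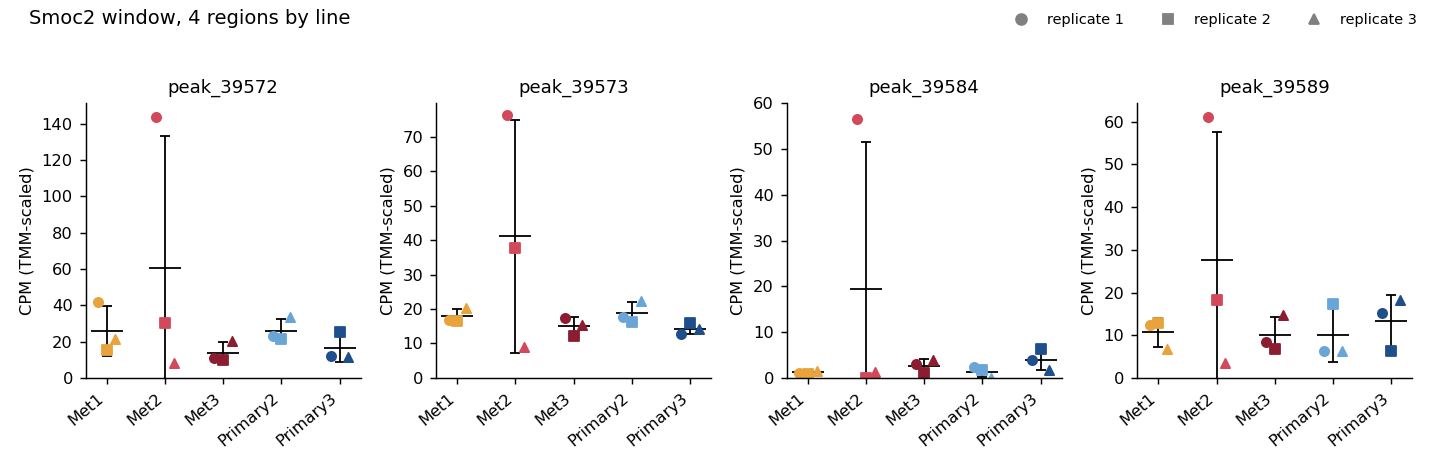
CPM by line (vertical axes, from 0) at 4 Smoc2 regions, with the mean and SD of each group (n = 3). Met2 replicate 1 stands at 143.5, 76.3, 56.6 and 61.2 CPM, above all other lines in each panel; SD bars that would pass below 0 end at the axis.

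The Olfm4 window of 140 kb contained 0 regions. The nearest regions lie 105.0 kb before it (peak_29770, chromosome 14, 80234596 to 80234971) and 9.0 kb after it (peak_29772, 80489003 to 80489338), a gap of 254.0 kb. Of the 42999 gaps between neighbouring regions in the table, 4.68% are at least as long, and the median gap is 15.2 kb. This is a share of gaps. Long gaps hold a larger share of the genome's length, so it understates how often a locus falls in one. Both flanking regions were faint, with 97 and 77 counts over the 15 libraries, and at peak_29770 the log2 fold change was 0.46 ± 0.60 (± SE; adjusted p from edgeR of 0.653). The table lists only regions that the authors' caller found, as 1 set for all libraries, and no counts outside them, so it gives no level for Olfm4 and no upper limit in any group.

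Of the 6 called members, 5 were lower at Ascl2, and the other was the faint peak_9746 at Lgr5, which the stricter filter left out. The strongest region of each of the 3 loci was not called in rounds 2 and 3 together. Across the 15 libraries, which differ in depth, the log2 CPM of pairs of tested regions had a median Pearson's r of 0.28 at Ascl2 (78 pairs, -0.45 to 0.86), 0.37 at Smoc2 (28 pairs, -0.18 to 0.87) and -0.08 at Lgr5 (10 pairs, -0.79 to 0.21). These values describe the pairs, and carry no test.

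For the strongest region of each locus, the 3 most similar of 19965 regions outside the windows were sought by Pearson's r of log2 CPM over the 15 libraries. For peak_93867 at Ascl2 they were peak_47197 on chromosome 18 (80446582 to 80447445, r = 0.92), peak_43214 on chromosome 17 (84413442 to 84414254, 0.87) and peak_98651 on chromosome 8 (109589357 to 109591142, 0.87). For peak_9745 at Lgr5 they were peak_39804 on chromosome 17 (22451318 to 22452207), peak_53202 on chromosome 2 (48296737 to 48298182) and peak_14226 on chromosome 11 (78310676 to 78311638), each with r = 0.82. For peak_39572 at Smoc2 they were peak_80384 on chromosome 6 (22236746 to 22239419), peak_16712 on chromosome 11 (108910044 to 108911284) and peak_95819 on chromosome 8 (36356364 to 36357447), each with r = 0.84. As the highest of many, these r values are a description.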

How the data were processed

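The authors deposited raw read counts for 1 set of regions in all 15 libraries. The build was mm9 and the tools were MACS2, bedtools, Bowtie, SAMtools and Picard, listed without roles, per the submitters' processing notes. Versions, read shifting, duplicate removal and whether regions were called on pooled samples are not given in the sources used here, and coordinates are printed as deposited.

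Counts were fitted with edgeR 4.0.16 (limma 3.58.1, R 4.3.3), with TMM scaling, filterByExpr (minimum count 10, minimum total 15, 39952 regions kept, 92.9%), 5 group means and robust quasi-likelihood dispersion over all 15 libraries. The script was tested on simulated data. SEs came from the fold change and F statistic. Log2 CPM used a prior count of 2. DESeq2 1.42.0 served as an alternative, and Python 3.11.15, pandas 2.3.3, numpy 2.4.6, scipy 1.17.1 and matplotlib 3.10.9 did the rest.

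The members and lists were chosen with earlier results of these data known. Regions were named by rule: per locus the strongest region, up to 5 called in rounds 2 and 3, the extreme fold changes among regions at or above the median level, and up to 2 called per contrast with Met1. Other regions are named after their values were seen. Alternatives were total-count scaling, no and a stricter filter (1 CPM and 20 counts in 6 libraries), only the groups compared, a replicate block, removal of chromosome or local (1 Mb) medians, and leaving out libraries. Local medians were removed from log2 CPM, and group means with each line weighted alike were compared without a fit.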

Additional observations from a re-analysis of the deposited data

Results flagged for a closer look

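In 56 sets of lines (28 regions in the 9 metastasis and in the 6 primary lines), 4 sets held a line far from all others on the log2 CPM scale. At 1 in 20, 2.8 sets would be expected if all lines of a set were drawn alike. The sets pool groups and libraries of unequal depth, so that number is nominal and no test. Met2 replicate 1 was low at peak_9742 of Lgr5, with 9.87 CPM (15 counts) where the other metastasis lines held 26.8 to 44.5. The same line was high at peak_39584 of Smoc2, with 56.6 CPM where the others held 0 to 3.85. Met1 replicate 1, the shallowest metastasis library, was high at peak_93858 of Ascl2, with 32.5 CPM (29 counts) against 10.4 to 18.1. Primary2 replicate 1 was low at peak_93871 of Ascl2, with 2.30 CPM (4 counts) against 6.25 to 9.59 in the other primary lines.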

How the results depend on the processing

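In rounds 2 and 3 together the number of members called was 6, and 5 to 7 when a library was left out. Leaving out single libraries gave 3 to 7 in round 2 (4 in the full fit), 0 to 5 in round 3 (4), 1 to 5 for Met2 against Met1 (3), 2 to 5 for Met3 against Met1 (5) and 0 to 2 for Met3 against Met2 (0). A fit of only the groups compared gave 0 for Met2 against Met1. For Met3 against Met1 the replicate block and the fit without the 2 shallowest libraries each gave 2. The share of all regions called was not recorded for any of these alternative fits. Same-numbered lines did not deviate together (30 pairs, r from -0.21 to 0.16, and 2 of 15 libraries correlated best with their own number), so the numbers were not taken as pairs, and the block gave 5 members for rounds 2 and 3 together. The median log2 fold change of the Ascl2 window was -0.98 with the stricter filter, which tests fewer regions, and ran from -0.97 to -0.59 when a library was left out. That of Lgr5 was -0.15 with chromosome medians removed and ran from -0.09 to 0.12, and that of Smoc2 ran from -0.07 to 0.84. The sign at peak_39572 of Smoc2 turned (-0.21) without Met2 replicate 1, and its values without single libraries ran from -0.21 to 0.86. Of 616 tested alternative values of named regions, 529 kept their direction and side of the threshold, 80 lost the call, 6 gained it and 1 turned. The stricter filter left out peak_9746 of Lgr5. Except where a cause is named, the cause was not tested. The local medians gave 27 values with no test, of which 1 moved (peak_93860 in round 3, -0.77). These values are differences of mean log2 CPM, so the estimate differs from the fit too, and which change moved it was not tested. The shallowest library, Primary3 replicate 2, held 0 to 19 counts per member region and limits what round 3 can show.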

Other observations

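The share of the Ascl2 window's counts that fell in peak_93859, peak_93860 and peak_93861 is given as a description. These regions were chosen after they were seen to be lower in the later metastasis lines, so a lower share there follows from that choice. The share was 48.2% ± 6.56 in Primary2, 39.3% ± 4.88 in Primary3, 35.6% ± 9.62 in Met1, 22.7% ± 3.79 in Met3 and 21.4% ± 4.63 in Met2 (SD, n = 3 each). The later metastasis lines ranged from 16.9% to 26.2% and the primary lines from 35.2% to 53.5%. Met1 replicate 1, at 24.8% (68 of 274 counts, exact 95% binomial interval 19.8 to 30.4), fell among the later metastasis lines, and the other Met1 lines, at 43.2% and 38.9%, among the primary lines. The share in peak_93867 was 15.9% ± 1.58 in Primary2, 19.9% ± 4.89 in Primary3, 25.5% ± 1.62 in Met1, 21.3% ± 7.04 in Met2 and 24.6% ± 6.62 in Met3.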
